A study of Mus musculus with 6 samples.

Results

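Glycolysis splits glucose into pyruvate in the cytosol through a fixed chain of enzymes, and lactate dehydrogenase then turns pyruvate into lactate. Embryonic stem cells are known for a high rate of glycolysis even when oxygen is present, and most of these enzymes are among the abundant proteins of the cell. Their RNAs are joined from many exons, so each depends on the removal of several introns. SON is a nuclear speckle protein that takes part in pre-mRNA splicing.

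The 10 genes described here code for enzymes of this chain, without phosphoglycerate mutase and enolase: Hk2, Gpi1, Pfkl, Pfkp, Aldoa, Tpi1, Gapdh, Pgk1, Pkm and Ldha. They were chosen by gene symbol as named glycolysis enzymes and not by a cut on their response, but with earlier results of these data known. The total RNA tables hold 12134 genes. The cells were E14, a mouse embryonic stem cell line of 129/Ola background, grown on gelatin in medium with serum and leukemia inhibitory factor. All groups were transfected with an siRNA in Lipofectamine2000, either a control siRNA or an siRNA against Son, and RNA was taken 24 hours later. Total RNA, freed of ribosomal RNA, gave 2 control and 2 Son knockdown libraries, and polyadenylated RNA was read as Nanopore cDNA from 1 control and 1 knockdown library. The question was how knockdown of Son changed the splicing and the amount of these RNAs.

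The total RNA tables give, for each junction of each intron, the reads that cross it split (spliced) or unsplit. Splicing efficiency is the split share of the reads over both junctions. The libraries held 10556187 to 16012286 split reads at 5′ junctions. Scaled to each library's listed split reads (CPM), spliced reads of Son were at 289 ± 22.8 under control siRNA against 96.3 ± 5.92 under Son siRNA (SD, n = 2 each), with a log2 fold change of −1.61 (standard error 0.087). Of 10 markers of naive pluripotent stem cells, 9 had an intron listed in all 4 libraries. Their summed level was 4983 to 5024 spliced CPM in the controls and 4850 to 5070 in the knockdown. Pou5f1 made up a large part of it, at 1929 and 1831. In spliced reads 1 of the 9 (Tfcp2l1) rose, by a log2 fold change of 0.23 (adjusted p = 0.0354, edgeR). In splicing efficiency per gene only Pou5f1 was called, from 0.986 to 0.977, with a log2 odds ratio of unsplit reads of 0.79 (adjusted p = 0.00259, edgeR). Over all tested genes 6.98% were called lower. Only 1 of 4 trophoblast, 2 of 6 primitive endoderm and 1 of 5 fibroblast markers were listed. For each of these types the listed markers summed to at most 4.64 CPM in any library. None of 5 markers of 2-cell-like cells was listed. A gene without a listed intron can still be expressed, so these values do not show that such cells were absent. Of 4 primed epiblast markers, Dnmt3b alone was listed, at 184 to 205 CPM. The labels do not say whether replicates were separate cultures, so p-values measure the spread between these libraries. The 2 libraries of the knockdown also differed. Over all tested genes the median log2 odds ratio of unsplit reads, knockdown against control, was 0.21 with the second alone and −0.02 with the first alone.

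Pyruvate kinase shows how splicing sets which enzyme is made. Pkm holds 2 mutually exclusive exons of 167 bases each, and a transcript carries either the upstream exon (pyruvate kinase M1) or the downstream exon (M2). M2 is the form known from embryonic and proliferating cells. Both exons are printed because they tell the annotated M1 and M2 transcripts apart. They come from the GENCODE M21 transcripts, on the plus strand of GRCm38, at chr9:59675029-59675195 and chr9:59675568-59675734, and capitals mark the 64 positions at which they differ (61.7% of positions are identical).
Pkm M1 exon: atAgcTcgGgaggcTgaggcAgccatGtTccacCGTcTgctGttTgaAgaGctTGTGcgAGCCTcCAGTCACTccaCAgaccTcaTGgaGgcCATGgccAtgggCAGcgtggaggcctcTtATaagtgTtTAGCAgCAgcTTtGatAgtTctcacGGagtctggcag
Pkm M2 exon: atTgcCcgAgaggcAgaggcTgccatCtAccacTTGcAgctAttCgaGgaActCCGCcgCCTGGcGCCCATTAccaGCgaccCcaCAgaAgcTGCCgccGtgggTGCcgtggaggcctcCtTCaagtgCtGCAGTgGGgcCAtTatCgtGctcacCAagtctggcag

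In the control long-read library, 9860 reads fell on the M2 transcript and 261 on the M1 transcript. The M2 share was 97.4% (95% Wilson interval 97.1 to 97.7). In the knockdown library 5676 and 129 reads did so, a share of 97.8% (97.4 to 98.1). The intervals overlap, and they cover counting error only, with 1 library per group and no replicate check. M2 was the dominant form under both siRNAs. The introns beside these exons were not among the 6 Pkm introns listed in all 4 total RNA libraries, so total RNA gives no splicing efficiency for the switch itself.

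Which introns could be measured followed the annotation. The most read transcripts of the 10 genes have 123 annotated introns in M21, of which 83 were listed in some total RNA library and 40 were not. All 40 unlisted introns overlap an annotated exon of some transcript, against 2 of the 83 listed (introns 3 and 4 of Gpi1, which overlap Gm26762). All 6 introns of Gapdh overlap such an exon, and none was listed, so Gapdh, the glyceraldehyde-3-phosphate dehydrogenase, was measured in the long reads alone. Across all annotated transcripts of the members, 90 introns were listed in some library and 85 in all 4, in 9 genes. Of these, 83 had enough reads for the test, and both untested ones belong to Pfkl.

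Control cells spliced most of these introns almost fully. Over the 85 introns the mean splicing efficiency was 0.958 ± 0.000148 in the controls against 0.948 ± 0.00642 after knockdown (SD, n = 2 each). By library it was 0.958 and 0.958 in the controls, 0.953 in the first knockdown library and 0.944 in the second. The difference of −0.00975 was carried mainly by the second knockdown library. It was −0.00521 without that library and −0.0143 without the first. Weighted by reads it was −0.00296. The unweighted mean counts thinly covered introns fully. Its largest falls were −0.235 in a 326 nt Pfkl intron, −0.0785 in Pfkp intron 17 and −0.0664 in Hk2 intron 9. These introns had as few as 48, 59 and 62 junction reads in a library. Among the 83 tested introns the median change was −0.00259. Over all 68322 introns listed in all 4 libraries, the mean was 0.898 in the controls and 0.884 in the knockdown. Among tested introns, 42 of 83 in the members had a control efficiency of at least 0.98, against 11.2% of all. They were also more deeply covered, with a median of 1035 junction reads per library against 201.5, and somewhat shorter, with a median length of 810 nt against 1128 nt.

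**Figure D1:**
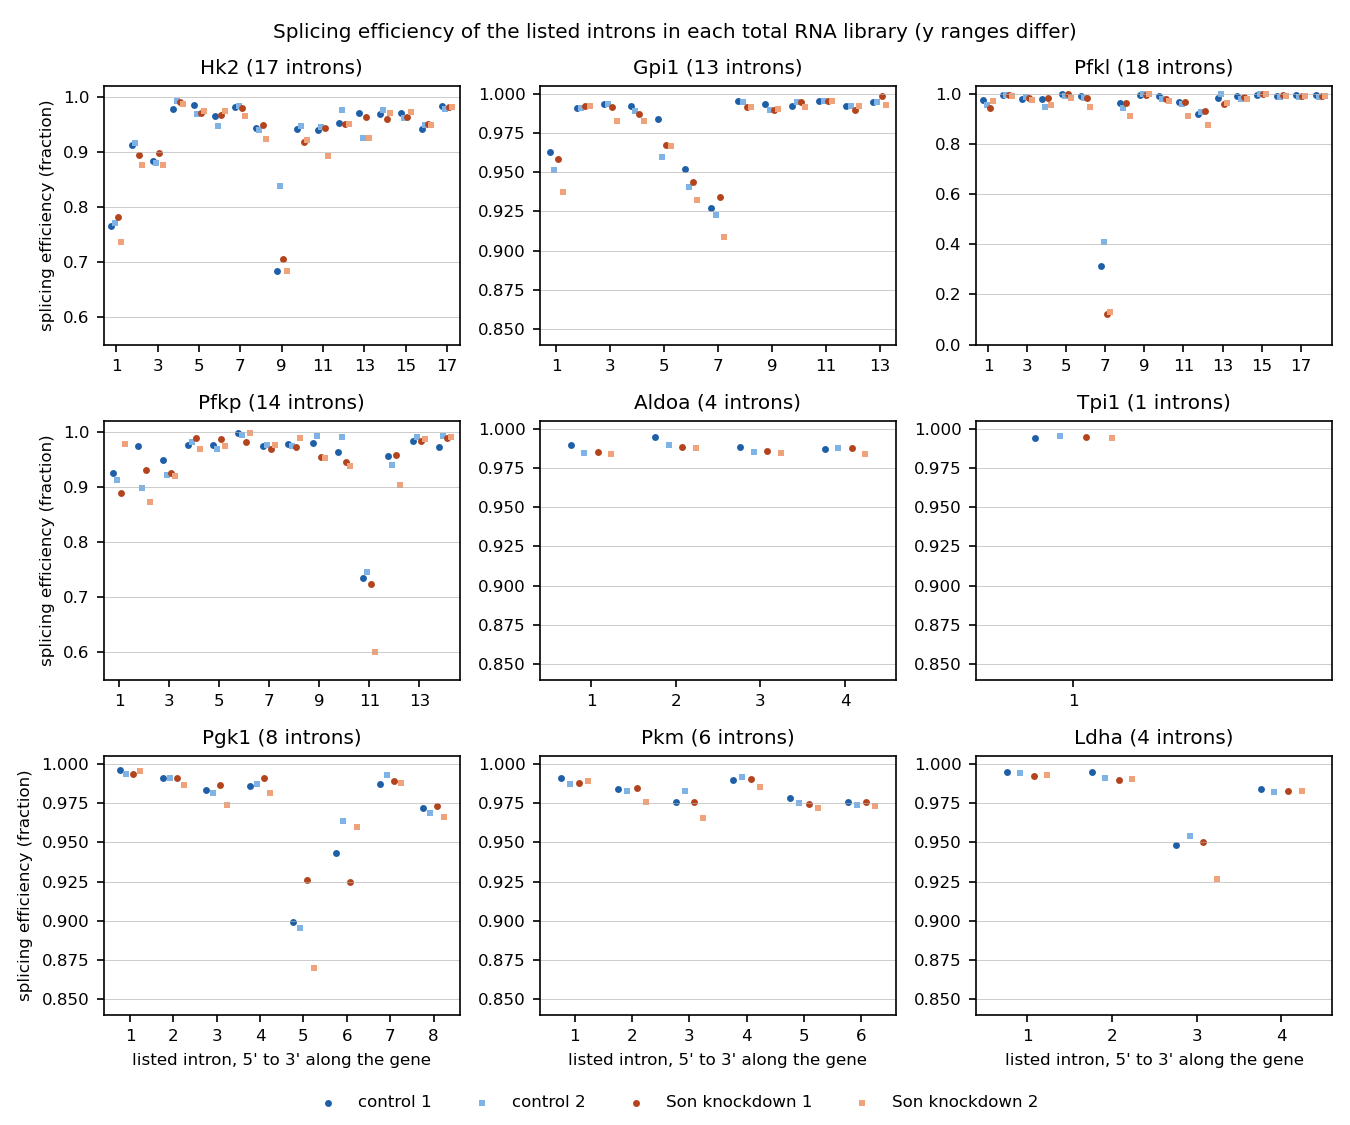
Splicing efficiency (fraction, y axis, ranges differ between panels) of each intron listed in all 4 libraries, in order along its gene (x axis), with 1 point per total RNA library. Most points lie above 0.9, and the points below it belong to introns of Hk2, Pfkl, Pfkp and Pgk1.

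None of the 83 introns passed the test for lower splicing efficiency and none for higher (edgeR quasi-likelihood test, Benjamini-Hochberg adjustment over all 63309 introns, threshold 0.05). Among all introns tested, 1.71% were called lower and 0.0442% higher. DESeq2 and limma on log2 odds also called 0. At an unadjusted p under 0.05, 9 member introns were lower and 0 higher, and 8.11% of all introns were lower by that rule. The median log2 odds ratio of unsplit reads was 0.22 over the members and 0.12 over all tested introns, which is above 0 where unsplit reads gained on split reads after knockdown. Scaling split and unsplit reads separately moved these medians to 0.06 and −0.04. Both knockdown libraries lay below both controls in 20 of the 83 introns, against 24.3% of all, and above both in 3, against 13.1% of all. Among introns with at least 500 junction reads in every library, none of 54 member introns was called lower, and 1.71% of all such introns were.

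**Figure D2:**
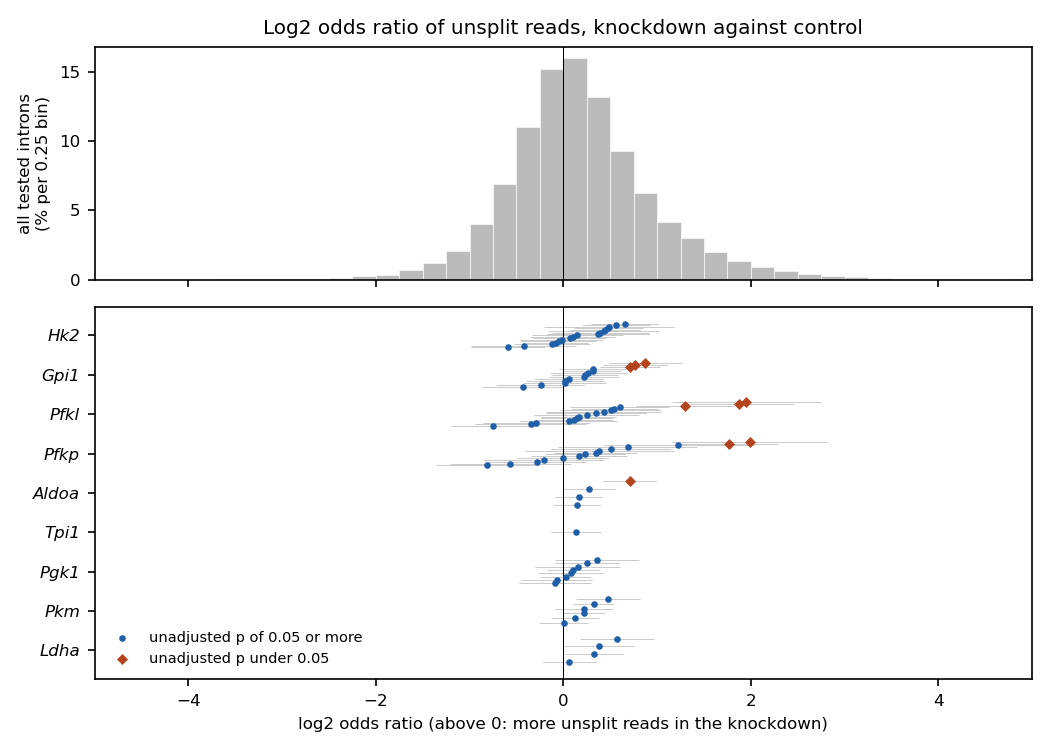
Log2 odds ratio of unsplit reads (x axis, knockdown against control) for all 63309 tested introns as a histogram in percent (top), and for the 83 member introns with their standard errors (bottom). Red diamonds mark the 9 introns with an unadjusted p under 0.05, which belong to Gpi1, Pfkl, Pfkp and Aldoa and all lie above 0.

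Of the 4253 tested introns of at most 100 nt, 8.28% were called lower in the knockdown. The members hold 7 such introns, from 82 to 98 nt, in Aldoa (3), Gpi1 (2), Hk2 and Pfkl, and none was called. Their median efficiency was 0.991 in the controls and 0.986 in the knockdown, where all introns of that length had 0.936 and 0.910. Exon sequence around 2 of them, and around the pair of longer introns that came nearest to the threshold, is shown to mark where these splices lie. Each line joins 25 bases of the upstream exon to 25 bases of the downstream exon (GENCODE M21 transcripts), with capitals for the last 3 bases before and the first base after the removed intron. The introns lie on the minus strand at chr7:33920186-33920267 (Gpi1), chr7:126395928-126396025 (Aldoa), chr13:6652896-6653114 (Pfkp) and chr10:77826659-77827187 (Pfkl) of GRCm39.
Gpi1 intron 5, 82 nt: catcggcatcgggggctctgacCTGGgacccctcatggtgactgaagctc
Aldoa intron 4, 98 nt: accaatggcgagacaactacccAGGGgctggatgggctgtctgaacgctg
Pfkp intron 12, 219 nt: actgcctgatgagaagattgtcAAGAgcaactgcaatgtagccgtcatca
Pfkl intron 15, 529 nt: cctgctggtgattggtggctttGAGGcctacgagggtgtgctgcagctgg

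Hk2 codes for hexokinase 2, which phosphorylates glucose and so holds it in the cell. Its 17 introns had the lowest splicing efficiency per gene among the members. Summed over introns, it was 0.949 and 0.947 in the controls against 0.947 and 0.936 in the knockdown. The second knockdown library was the low one, and the log2 odds ratio of 0.17 did not pass (standard error 0.22, adjusted p = 0.907, edgeR). Intron 9 (chr6:82713816-82715267, 1452 nt) had the lowest control efficiency, at 0.684 and 0.839, with 0.706 and 0.684 in the knockdown. Its groups overlapped, and it had as few as 62 junction reads in a library. The 12367 nt intron at the start of an alternative transcript had at most 1 split read at its 5′ junction and 325 to 450 at its 3′ junction in each library. Its efficiency of 0.736 to 0.781 therefore rests on 1 junction. Spliced reads of Hk2 were at 468 and 475 CPM in the controls against 512 and 469 in the knockdown, a log2 fold change of 0.04 (95% interval −0.11 to 0.18).

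Gpi1 codes for glucose-6-phosphate isomerase, which converts glucose 6-phosphate to fructose 6-phosphate. Of its 13 introns, 9 had a control efficiency of at least 0.98. Introns 4, 5 and 10 had an unadjusted p under 0.05, yet their changes were small in absolute terms. In the 82 nt intron 5, efficiency was 0.992 and 0.989 in the controls against 0.987 and 0.983 in the knockdown. The groups did not overlap, and the log2 odds ratio was 0.71 (standard error 0.32, adjusted p = 0.409, edgeR). In intron 4 (chr7:33920352-33926542), efficiency was 0.993 and 0.994 against 0.992 and 0.983, with an adjusted p of 0.373 (edgeR). Whether reads were counted by strand is not given in the sources used here, so reads of Gm26762 in intron 4 cannot be told apart. Intron 8 (chr7:33915435-33917722) had the lowest control efficiency, at 0.927 and 0.922, and 0.934 and 0.909 in the knockdown. The largest fall was in the 166 nt first intron of another transcript, with a difference of −0.00913, where only 1 to 4 split reads per library lay at the 5′ junction. Spliced reads of Gpi1 were at 1378 and 1413 CPM in the controls against 1365 and 1489 in the knockdown. The groups overlapped, and the log2 fold change was 0.01 (95% interval −0.13 to 0.14).

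Pfkl and Pfkp code for the liver and platelet subunits of phosphofructokinase, the committed step of glycolysis. They held 5 of the 9 introns with a small unadjusted p and both introns nearest to the threshold. In Pfkp intron 12, splicing efficiency was 0.981 and 0.993 in the controls against 0.954 and 0.953 in the knockdown. Unsplit reads at its 3′ junction numbered 13 and 2 in the controls against 27 and 15 in the knockdown, beside 411, 227, 323 and 186 split reads. Both knockdown libraries lay below both controls, and the log2 odds ratio was 1.77 (standard error 0.53, adjusted p = 0.0564, edgeR). In Pfkl intron 15, efficiency was 0.981 and 0.998 in the controls against 0.960 and 0.961 in the knockdown. The second control library had 1 unsplit read there over both junctions. The log2 odds ratio was 1.88 (standard error 0.58, adjusted p = 0.0706, edgeR), and this intron was called without the first control library, with an adjusted p of 0.0369. Intron 7 of Pfkl (chr10:77833454-77835659) had an adjusted p of 0.273 and was called without the first knockdown library, at 0.0271 (edgeR). That fit rests on 1 knockdown library and assumes that it varies as the controls do.

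The lowest value of any member intron was in Pfkl, for a 326 nt intron of Pfkl-206 (chr10:77832593-77832918), a transcript with 0 long reads in either library. It was 0.3125 and 0.408 in the controls against 0.121 and 0.130 in the knockdown. No library had a split read at its 5′ junction, so no read showed this intron removed. Its 3′ junction had 15 and 20 split reads in the controls against 7 and 9 in the knockdown. The value rests on reads split at the 3′ junction alone and does not measure removal of this intron. The groups did not overlap, but with as few as 48 junction reads the adjusted p was 0.292 (edgeR). Among better covered introns, Pfkl intron 14 (chr10:77827276-77827849) was lowest, at 0.919 and 0.925 in the controls against 0.929 and 0.873 in the knockdown. In Pfkp it was intron 17 (chr13:6637150-6638524), at 0.735 and 0.746 in the controls against 0.724 and 0.600 in the knockdown, which was also the largest fall in that gene. Its adjusted p was 0.936 (edgeR).

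Pfkp had the lowest level per listed intron of the 9 genes, 19.5 ± 0.653 spliced CPM in the controls against 17.4 ± 1.65 after knockdown (SD, n = 2 each). Summed over introns, Pfkp had 280 and 267 spliced CPM in the controls against 260 and 227 in the knockdown. The groups did not overlap, and the log2 fold change of −0.19 did not pass (95% interval −0.36 to −0.02, adjusted p = 0.187, edgeR). The long reads were lower too, at 242 reads in the control library against 109. In CPM that was 78.6 CPM (95% Wilson interval 69.3 to 89.1) and 58.1 (48.2 to 70.1), a log2 ratio of −0.43, and these intervals overlap. Pfkl had 658 and 686 spliced CPM in the controls against 693 and 635 in the knockdown, which overlap, with a log2 fold change of −0.04.

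Aldoa and Tpi1 code for aldolase A, which cleaves fructose 1,6-bisphosphate, and triosephosphate isomerase, which interconverts its products. Aldoa, with introns of 92 to 428 nt, had an efficiency per gene of 0.990 and 0.987 in the controls against 0.987 and 0.985 in the knockdown. Its largest fall was in the 98 nt intron 4, from 0.995 and 0.990 to 0.988 and 0.988, with an adjusted p of 0.281 (edgeR). Intron 6 had the lowest control efficiency, at 0.988 and 0.985, and 0.986 and 0.984 in the knockdown. Tpi1 was measured at 1 intron of 129 nt (chr6:124788351-124788479), with 0.995 and 0.996 in the controls against 0.995 and 0.994 in the knockdown. The 4 values of Tpi1 overlapped, and its log2 odds ratio of 0.13 turned negative with separate scaling (−0.05). Spliced reads of Aldoa were at 1469 and 1490 CPM in the controls against 1448 and 1249 in the knockdown. The second knockdown library was the low one, and the log2 fold change was −0.16 (95% interval −0.30 to −0.01, adjusted p = 0.214, edgeR). For Tpi1 they were at 521 and 521 in the controls against 555 and 470 in the knockdown, so the controls lay between the knockdown libraries.

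Pgk1, on chromosome X, codes for phosphoglycerate kinase 1, the first ATP-forming step of the chain. It showed the largest log2 fold change of spliced reads among the 9 genes. They were at 1197 and 1153 CPM in the controls against 1109 and 928 in the knockdown. The groups did not overlap, and the log2 fold change was −0.23 (95% interval −0.39 to −0.07), with an unadjusted p of 0.0065 and an adjusted p of 0.0659 (edgeR). Splicing efficiency per gene stayed within 0.982 to 0.985 in all 4 libraries, with a log2 odds ratio of 0.07 that turned to −0.09 with separate scaling. Intron 6 (chrX:105241568-105243252) had the lowest control efficiency, at 0.899 and 0.896, and 0.926 and 0.870 in the knockdown. The largest fall was in intron 8 (chrX:105243943-105246044), from 0.943 and 0.964 to 0.925 and 0.960, where the groups overlapped. In the long reads Pgk1 had 650 CPM in the control (95% Wilson interval 622 to 679) and 668 (632 to 706) in the knockdown.

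Pkm had 2478 and 2679 spliced CPM in the controls against 2746 and 2485 in the knockdown, with a log2 fold change of −0.00 (95% interval −0.14 to 0.13). The groups overlapped. Its efficiency per gene was 0.985 and 0.985 in the controls against 0.984 and 0.9801 in the knockdown. Split reads differed widely between introns of the same gene: in the first control library they ran from 1279 to 16838 at the 5′ junctions of Pkm and from 357 to 8025 in Pgk1. The lowest control efficiency was in intron 10 (chr9:59585509-59586010), at 0.976 and 0.974, and 0.976 and 0.973 in the knockdown. The largest fall was in intron 5 (chr9:59576383-59577749), from 0.976 and 0.983 to 0.976 and 0.965.

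Ldha codes for the A subunit of lactate dehydrogenase. Its spliced reads were at 563 and 561 CPM in the controls against 557 and 475 in the knockdown. The groups did not overlap, and the log2 fold change was −0.15 (95% interval −0.30 to 0.01, adjusted p = 0.301, edgeR). Its efficiency per gene was 0.984 and 0.983 in the controls against 0.982 and 0.978 in the knockdown. Intron 6 (chr7:46501419-46503406) had both the lowest control efficiency and the largest fall, at 0.948 and 0.954 in the controls against 0.950 and 0.927 in the knockdown.

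**Figure D3:**
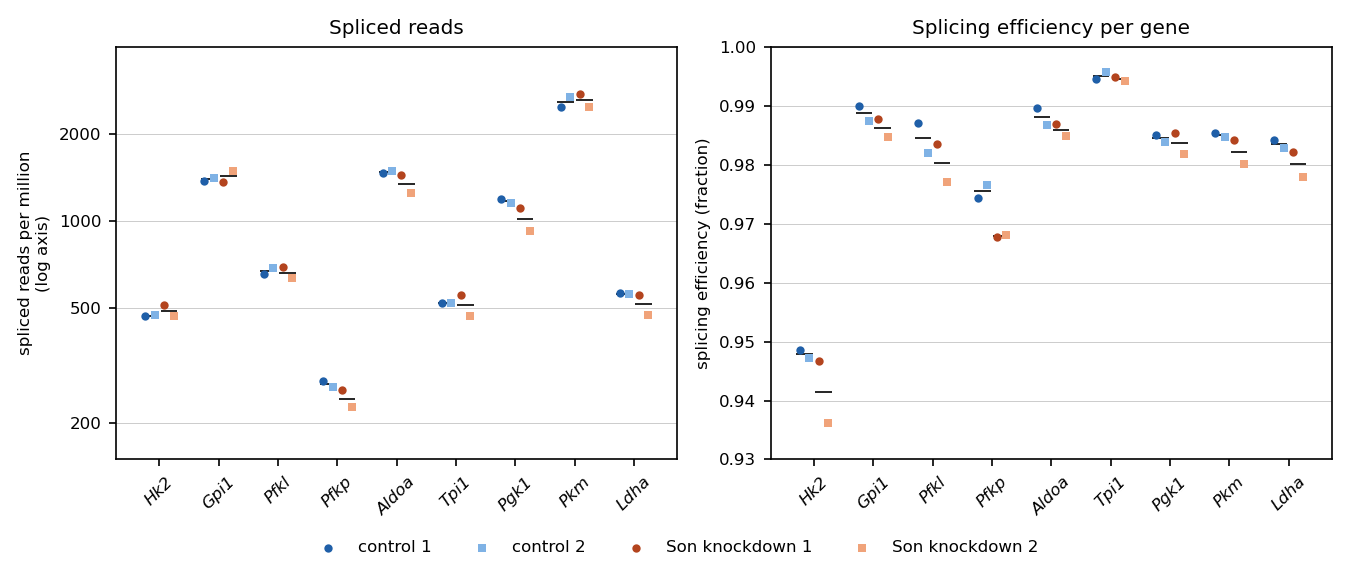
Spliced CPM (left, log axis) and splicing efficiency summed over introns (right) of the 9 genes with listed introns, with 1 point per total RNA library and a line at each group mean (n = 2). The second knockdown library is the lowest of the 4 for 6 of 9 genes in spliced reads and for 8 of 9 in splicing efficiency.

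Per gene, 0 of 9 members passed for lower splicing efficiency and 0 for higher by edgeR, with 0 in either direction at an unadjusted p under 0.05 and 0 by DESeq2 or limma. Among all 9370 genes tested, 6.98% were called lower and 0.128% higher. A replicate block called 3 members lower (Gpi1, Pfkl and Pkm), and the share over all genes in that run is not given here. In the main fit, all 9 log2 odds ratios were above 0, from 0.07 (Pgk1) to 0.40 (Pfkp), but those of Pgk1 and Tpi1 turned negative with separate scaling. Their median was 0.25, against 0.09 over all genes. Both knockdown libraries lay below both controls for 4 of 9 (Hk2, Pfkp, Pkm and Ldha), against 27.1% of all genes. For spliced reads, 0 of 9 passed in either direction by edgeR and 0 by DESeq2, where 6.76% of 9474 genes had fewer and 1.96% more. At an unadjusted p under 0.05, 3 had fewer (Pfkp, Aldoa and Pgk1) and 0 more, against 12% of all genes with fewer. With a replicate block, or without the low-count filter, Pgk1 was called with fewer. Both knockdown libraries lay below both controls for 4 of 9 (Pfkp, Aldoa, Pgk1 and Ldha), against 21.8% of all. The 95% intervals of the 9 fold changes lay within 0.766 to 1.14. Without the first knockdown library, the log2 fold changes of Pfkp, Aldoa, Tpi1, Pgk1 and Ldha ran from −0.36 to −0.17. That fit rests on the second knockdown library alone, which was the lowest of the 4 for 6 of 9 genes in spliced reads. In bulk RNA, fewer cells of a type and less RNA per cell cannot be told apart.

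By level, spliced reads per listed intron set Tpi1 (521 CPM in the controls), Pkm (430) and Aldoa (370) at the top. Pgk1 (147), Ldha (141) and Gpi1 (107) followed, and Pfkl (37.4), Hk2 (27.7) and Pfkp (19.5) were lowest. The neighbours Pgk1 and Ldha were close, at 147 ± 3.89 and 141 ± 0.280 in the controls (SD, n = 2 each). This order depends on which introns were listed.

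Long reads were counted by transcript, and the genes are ranked here without a correction for length. Whether a read could count more than once, or whether shorter molecules were read more often, was not tested. The most read transcripts differ in length, for example 1420 nt for Gapdh and 5513 nt for Hk2. Gapdh was first, with 25817 control reads and 15063 knockdown reads. That was 8381 CPM (95% Wilson interval 8280 to 8483) and 8034 (7907 to 8163), a log2 ratio of −0.06. Pkm followed with 3356 and 3139 CPM, then Ldha with 2037 and 1977, Aldoa with 1414 and 1461, and Pgk1 with 650 and 668. Tpi1 (346 and 366), Gpi1 (334 and 326), Pfkl (159 and 172), Hk2 (84.7 and 82.1) and Pfkp (78.6 and 58.1) were lower. The intervals of Tpi1 and Gpi1 overlap in the control, as do those of Hk2 and Pfkp. No member reached a 2-fold difference between the libraries, against 6.37% of 9611 genes with at least 20 reads. The log2 ratios ran from −0.43 (Pfkp) to 0.11 (Pfkl). With 1 library per group there is no test, and the labels name the same knockdown sample as starting material for both long-read libraries, the control included. In the long reads Son was at 70.4 CPM in the library labelled control and at 19.7 in the one labelled knockdown.

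**Figure D4:**
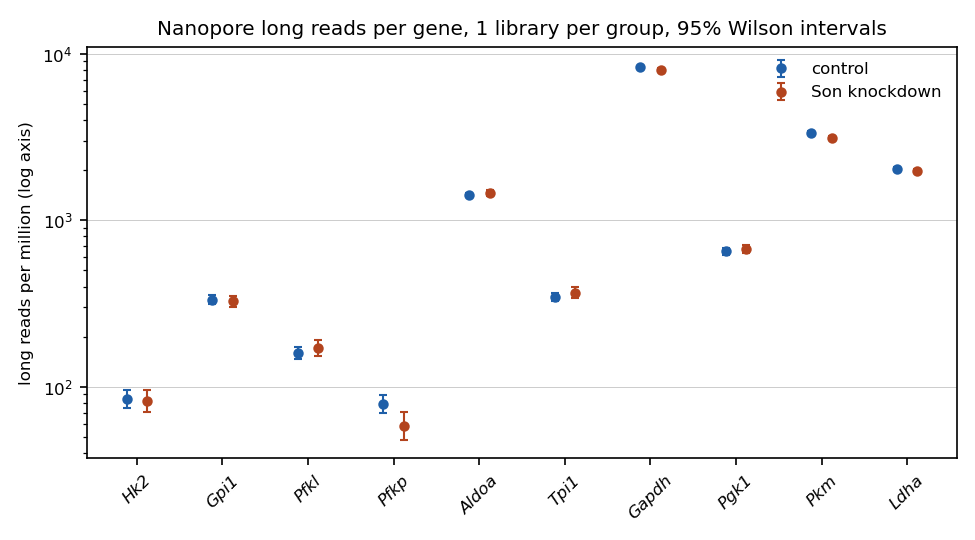
Long-read CPM (log axis) for the 10 genes in 1 control and 1 Son knockdown library, with 95% Wilson intervals that cover counting error. Gapdh is highest at 8381 and 8034, and the intervals are apart for Pkm and Gapdh, where the knockdown is lower.

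One transcript took most reads of each gene. Its share in the control ran from 79.3% in Pfkp to 98.9% in Hk2. These were Hk2-201, Gpi1-201, Pfkl-201, Pfkp-207, Aldoa-201, Tpi1-205, Gapdh-203, Pgk1-201, Pkm-201 and Ldha-202, with log2 ratios from −0.56 (Pfkp-207, 192 and 79 reads) to 0.12 (Pfkl-201, 482 and 318 reads). Of 32 member transcripts with at least 20 reads, 1 was at least 2-fold changed, against 9.16% of all such transcripts. It was Pkm-206 (ENSMUST00000215623), annotated as protein coding, with 25 reads in the control and 7 in the knockdown, a log2 ratio of −1.05. Pkm-206 holds neither alternative exon at its full annotated bounds. Its intervals of 5.50 to 11.98 and 1.81 to 7.71 CPM overlap. Chosen after its values were seen, Aldoa-202 had 124 CPM in the control (112 to 137) and 74.7 in the knockdown (63.3 to 88.1). Aldoa-203 had 57.1 (49.3 to 66.2) and 88.0 (75.6 to 102), so these minor aldolase transcripts differed in opposite directions between the libraries.

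Transcripts annotated as retaining an intron took 2.35% of the members' long reads in the control (95% Wilson interval 2.22 to 2.48) and 2.21% in the knockdown (2.05 to 2.38). Over all named genes these shares were 6.24% and 6.64%. Among the members the share was largest in Pfkp, at 16.9% (12.7 to 22.2) of 242 reads and 22.02% (15.3 to 30.7) of 109 reads, and these intervals overlap. Pkm had 1.45% (1.24 to 1.70) in the control and 0.952% (0.734 to 1.23) in the knockdown. No Hk2 transcript in the annotation is of this class, so the long reads give no such share for Hk2.

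Other genes of the pathway give the setting. The list holds 61 genes by role, of which 54 were listed in some library and 47 were tested. Spliced reads fell for 4 of the 47 and rose for 0 by edgeR, where 6.76% of all tested genes had fewer and 1.96% more, so the share that fell is near that of all genes. The median log2 fold change was −0.03, against −0.05 over the members and 0.01 over all genes. At an adjusted p of 0.0547, Pfkfb1, a phosphofructokinase-2 isoform, had a log2 fold change of 0.42 (edgeR).

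Among 5 transport genes, Slc2a1, the glucose transporter GLUT1, fell. It had 644 and 693 spliced CPM in the controls against 527 and 489 in the knockdown, a log2 fold change of −0.42 (standard error 0.070, adjusted p = 3.62e-04, edgeR). In the long reads it was at 111 CPM (99.6 to 123) and 99.2 (85.9 to 115), where the intervals overlap. Of 9 tested genes of other isoenzymes and steps, 1 fell, the aldolase C gene Aldoc. It had 23.0 and 24.5 spliced CPM in the controls against 14.9 and 13.1 in the knockdown, a log2 fold change of −0.78 (standard error 0.16, adjusted p = 0.00247, edgeR). Its splicing efficiency per gene also fell, from 0.959 to 0.891, at a log2 odds ratio of 1.52 with an adjusted p of 0.0038 (edgeR). That call was lost with limma (adjusted p = 0.103), at the 3′ junction alone (0.109, edgeR) and without the first control, second control or first knockdown library (0.140, 0.115 and 0.0533, edgeR). The calls of Slc2a1 and Aldoc in spliced reads were lost with the best covered intron alone, at adjusted p of 0.221 and 0.0550 (edgeR). Pfkm, the muscle phosphofructokinase subunit, had a log2 odds ratio of 0.69 that did not pass (adjusted p = 0.144, edgeR).

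Of 7 genes of the pentose phosphate branch, G6pdx fell. It codes for glucose-6-phosphate dehydrogenase, which draws glucose 6-phosphate out of glycolysis. Its spliced reads were at 158 and 162 CPM in the controls against 99.9 and 110 in the knockdown, a log2 fold change of −0.63 (standard error 0.088, adjusted p = 4.98e-05, edgeR). Its efficiency per gene fell from 0.973 to 0.944, a log2 odds ratio of 1.11 (adjusted p = 7.40e-04, edgeR), a call lost with limma (adjusted p = 0.164) and without the first control library (0.217, edgeR). Its 93 nt intron 11 (chrX:73454096-73454188) had an efficiency of 0.994 and 0.982 in the controls against 0.953 and 0.932 in the knockdown and was called lower (adjusted p = 0.0117, edgeR). In the long reads G6pdx was at 50.6 CPM (43.3 to 59.2) and 31.5 (24.4 to 40.6), with intervals apart.

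Of 9 tested genes of transcription and oxygen sensing, Epas1, which codes for HIF-2 alpha, fell, from 152 and 158 spliced CPM to 132 and 127. Its log2 fold change was −0.28 (adjusted p = 0.0378, edgeR), and the call was lost without the first or second control library (adjusted p = 0.328 and 0.503, edgeR), with library totals, with the best covered intron and with DESeq2 (adjusted p = 0.0541). None of 6 regulators of flux and none of 11 pyruvate entry genes passed for spliced reads. Intron 2 of Pdha1 (chrX:158915239-158916168), of the pyruvate dehydrogenase E1 alpha gene, was the other one of 238 pathway introns called lower, where 1.71% of all tested introns were. Its efficiency was 0.983 and 0.972 in the controls against 0.930 and 0.874 in the knockdown (adjusted p = 0.0136, edgeR). Pdha1 itself had a log2 fold change of −0.01. Both intron calls were lost when either junction was tested alone, with DESeq2, with limma, and without the first control or second knockdown library. With DESeq2 the adjusted p was 0.120 for G6pdx and 0.127 for Pdha1. Without the first control library it was 0.629 and 0.469, and without the second knockdown library 0.125 and 0.187 (edgeR). The Pdha1 call was also lost without the second control library (adjusted p = 0.0687, edgeR).

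**Figure D5:**
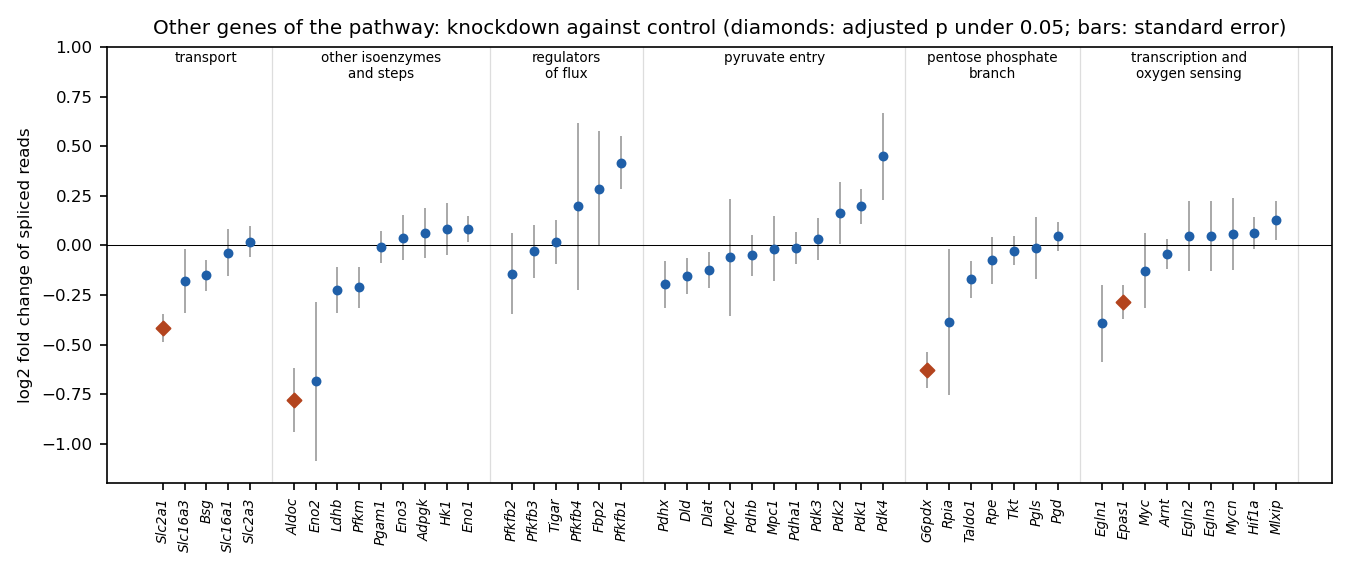
Log2 fold change of spliced reads (y axis, knockdown against control) with its standard error for the 47 tested genes of the pathway list, grouped by role. Diamonds mark the 4 genes past an adjusted p of 0.05, which are Slc2a1, Aldoc, G6pdx and Epas1, and all lie below 0.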

How the data were processed

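The authors deposited tables of SPLICE-q output for total RNA, per the labels: per intron, counts of reads that cross the 5′ and the 3′ junction split or unsplit. The authors' deposited fraction, the splicing efficiency, equals split reads over all reads of both junctions. The smallest read total at any listed junction was 10. The Nanopore tables deposited by the authors hold read counts by transcript. The submitters' processing notes name minimap2, SAMtools and GRCm39 without versions or roles. Gene names, exons and transcript sequences came from GENCODE M21 (GRCm38) by identifier, and positions are never mixed: 99.6% of intron entries had the same length there and 2.28% the same position.

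Introns repeated for several transcripts were counted once. Tests were fitted on the whole tables with edgeR 4.0.16 in R 4.3.3. For splicing, split and unsplit reads per intron or gene (at least 10 of each over the libraries) were modelled with library terms, 1 term for being unsplit and, as the tested term, its interaction with knockdown. A read that spans an intron counts at both junctions. Spliced reads are split reads at 5′ junctions summed per gene, tested with TMM and the default expression filter, and printed as CPM of the library's listed split reads. A read crossing several introns counts at each. Thresholds were 0.05 after Benjamini-Hochberg adjustment. On simulated counts for these comparisons, the splicing fit recovered 111 of 200 introns with a 4-fold change in odds, with 3 false calls among 9817 introns, and the spliced-read fit recovered 171 of 194 genes with a 2-fold change, with 12 false calls among 9443 genes. Long-read CPM use the sum of each table, with a pseudocount of 0.5 reads in ratios and 95% Wilson intervals from scipy. Intervals and floors (3 counts) cover counting error only.

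Alternatives were DESeq2 1.42.0, limma 3.58.1, single junctions, other scalings and filters, a replicate block and each library left out. The members, lists and tests were chosen with earlier results of these data known. Introns named are every one called and, per member, those with the lowest control efficiency and the largest fall where every library had 50 or more reads. Transcripts named are the most read one and any 2-fold changed one with at least 20 reads. Pathway genes named are those called. The 500-read limit and the other introns, transcripts and genes named were chosen after the values were seen.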

Additional observations from a re-analysis of the deposited data

How the results depend on the processing

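No member intron was called higher, no member had more spliced reads and no member was called higher in splicing efficiency per gene in any alternative run. Leaving out 1 library gave 0 to 1 member introns called lower, 0 to 5 members with fewer spliced reads, 3 to 8 pathway genes with fewer and 0 to 2 with more spliced reads. The mean splicing efficiency difference then ran from −0.0143 to −0.00521. Where a group kept 1 library, it was assumed to vary like the other group. The shares called over all introns and genes in those runs are not given here, so these counts cannot be set against them. Weighting the mean by reads gave −0.00296, and without the low-count filter 1 member (Pgk1) had fewer spliced reads. With the best covered intron alone, 1 pathway gene had fewer spliced reads. Pfkfb1 was called as the 1 pathway gene with more spliced reads with library totals and without the filter. The causes were not tested.

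Deviations of same-numbered libraries correlated at 0.0017 in spliced reads per gene and 0.0085 in intron odds. Such a correlation over features cannot see a shift shared by a whole library, so it does not settle whether replicate numbers pair the samples. Over all introns, mean splicing efficiency was 0.903 and 0.893 in the first and second control libraries. It was 0.893 and 0.875 in the first and second knockdown libraries. Over the member introns both controls were at 0.958. With a replicate block, 2 member introns were called lower (Pfkl intron 15 and Pfkp intron 12), as were 3 members per gene (Gpi1, Pfkl and Pkm). With that block, 1 member had fewer (Pgk1) and 1 pathway gene had more spliced reads. The shares called over all introns and genes with that block are not given here, so these counts cannot be set against them.

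The sign of small values turned. For the log2 odds ratio per gene, separate scaling gave −0.0457 for Tpi1 and −0.0894 for Pgk1, and the 3′ junction alone gave −0.115 for Tpi1. With 1 library left out it ran from −0.023 to 0.325 for Tpi1 and from −0.0819 to 0.234 for Pgk1. For the log2 fold change of spliced reads, Pkm turned to 0.000363 with DESeq2 and 0.0191 with library totals. With 1 library left out it ran from −0.0284 to 0.0972 for Hk2, −0.0542 to 0.0717 for Gpi1, −0.104 to 0.0212 for Pfkl, −0.171 to 0.0683 for Tpi1 and −0.075 to 0.0678 for Pkm. In the long reads, the count of members at least 2-fold changed stayed at 0 in the 3 alternatives run. A restriction to protein-coding transcripts could not move the Pkm2 share, since the M1 and the M2 transcript are both protein coding. The other long-read values had no alternative. At this depth 2 Pfkl introns had fewer than 10 unsplit reads over the libraries and could not be tested.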
